A study of Mus musculus with 6 samples.

Results

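A set of 9 genes that define the macrophage lineage was followed in RAW264.7 cells with and without SKI-II: the transcription factor genes Spi1, Cebpa and Irf8, the growth factor receptor gene Csf1r, and the identity marker genes Adgre1, Itgam, Cd68, Cd14 and Lyz2. They were chosen by symbol, for their known roles in the lineage, with earlier results of these data known. All 9 were among the 49315 genes of the count table, and all 9 were among the 12274 that passed the filter on low counts and were tested. RAW264.7 is a macrophage-like mouse line, established from a tumor induced by Abelson leukemia virus, and the labels give its genotype as WT. Cells received 4 μg/mL of SKI-II, a compound that inhibits sphingosine kinases, or its vehicle DMSO, and RNA was taken after 24 h. Both conditions are the same line, with no other treatment named in the labels and with 3 libraries each. The study's methods refer the treatment and RNA extraction to its qPCR assay, which was run on biological replicates, but the labels do not say whether the libraries came from separate cultures. If they did not, p-values measure only the technical spread between libraries.

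Macrophages arise from myeloid progenitors under the control of a small set of transcription factors. PU.1, the product of Spi1, opens and holds myeloid enhancers, C/EBP alpha, from Cebpa, works with it to start the granulocyte and monocyte program, and IRF8 directs progenitors toward monocytes. Their targets include Csf1r, the receptor through which CSF-1 keeps macrophages alive, and many of the surface and lysosomal proteins by which macrophages are recognized.

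The stretches of DNA upstream of Itgam and Lyz2 are shown because these 2 genes had lower counts with SKI-II and RefSeq held a promoter window for each. They are RefSeq sequences of GRCm38.p6 and end just before the first base of the gene in GENCODE M21. That of Itgam is chr7:128062390-128062639 on the plus strand, and that of Lyz2 is chr10:117282322-117282522 on the minus strand. Capitals mark matches to the PU.1 motif, written 5′ to 3′ on the strand of the gene.
Itgam: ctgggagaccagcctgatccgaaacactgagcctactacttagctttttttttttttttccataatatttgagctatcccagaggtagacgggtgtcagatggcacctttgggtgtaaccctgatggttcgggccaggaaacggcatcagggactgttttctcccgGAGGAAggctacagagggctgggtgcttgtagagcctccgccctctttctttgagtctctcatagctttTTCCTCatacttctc
Lyz2: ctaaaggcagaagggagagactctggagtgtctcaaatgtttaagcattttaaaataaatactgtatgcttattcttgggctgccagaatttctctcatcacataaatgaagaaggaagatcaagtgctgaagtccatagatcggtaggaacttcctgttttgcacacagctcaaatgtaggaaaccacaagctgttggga
The window of 250 bases before the RefSeq start was searched on both strands for 4 motifs, which are PU.1 (GAGGAA), C/EBP (TTGCNNAA), IRF (GAANNGAAA) and an ETS-IRF composite (GGAANNGAA) whose first letters are the last letters of the PU.1 motif, so that matches of those motifs can share bases. Itgam held 2 PU.1 matches, with first bases 84 and 15 bases before the start, the nearer of them on the opposite strand, and none of the other motifs. The window of Lyz2, of which the 49 bases inside the GENCODE gene are not shown, held none of the 4. Of the others with a window, Cd68 had 1 PU.1 and 1 C/EBP match, and neither Cebpa nor the 2 windows of Irf8 had any. Among all 32851 promoter windows, 23.3% held the PU.1 letters, 9.56% the C/EBP letters, 6.31% the IRF letters and 6.99% the composite. A match in such a window is a description of the letters only. No promoter was searched for Spi1, Csf1r, Adgre1 or Cd14.

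With SKI-II, 1 of the 9 genes was called higher and 3 were called lower, which here means an adjusted p below 0.05. The other 5 were not called. Cd14 rose 2.66-fold, and Lyz2, Itgam and Adgre1 fell by factors between 1.89 and 2.39. Spi1, Cebpa, Irf8, Csf1r and Cd68 had fold changes within 1.13-fold of the DMSO mean in either direction and did not pass the test. Over all tested genes, 18.4% were called higher and 19.7% lower, so calls were common in this comparison. With a log2 fold change past 1 required as well, Cd14 was the 1 gene called higher, against 8.28% of tested genes, and Lyz2 the 1 called lower, against 7.44%. This last count ran from 0 to 3 as single libraries were left out, since Adgre1 (-1.02) and Itgam (-1.16) passed -1 beside Lyz2 without SKI-II replicate 3, Adgre1 (-1.06) did so without DMSO replicate 2, and none of them did without DMSO replicate 3 or SKI-II replicate 1. The median log2 fold change of the 9 genes was -0.15, or -0.23 without DMSO replicate 1, and that of all tested genes was 0.00. Fold changes and adjusted p-values here and below come from the quasi-likelihood F test in edgeR, adjusted over all tested genes by the Benjamini-Hochberg method, and values per library are normalized counts, which are read counts scaled to a common library size. In bulk RNA, fewer cells of a type and less RNA per cell cannot be told apart.

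**Figure D1:**
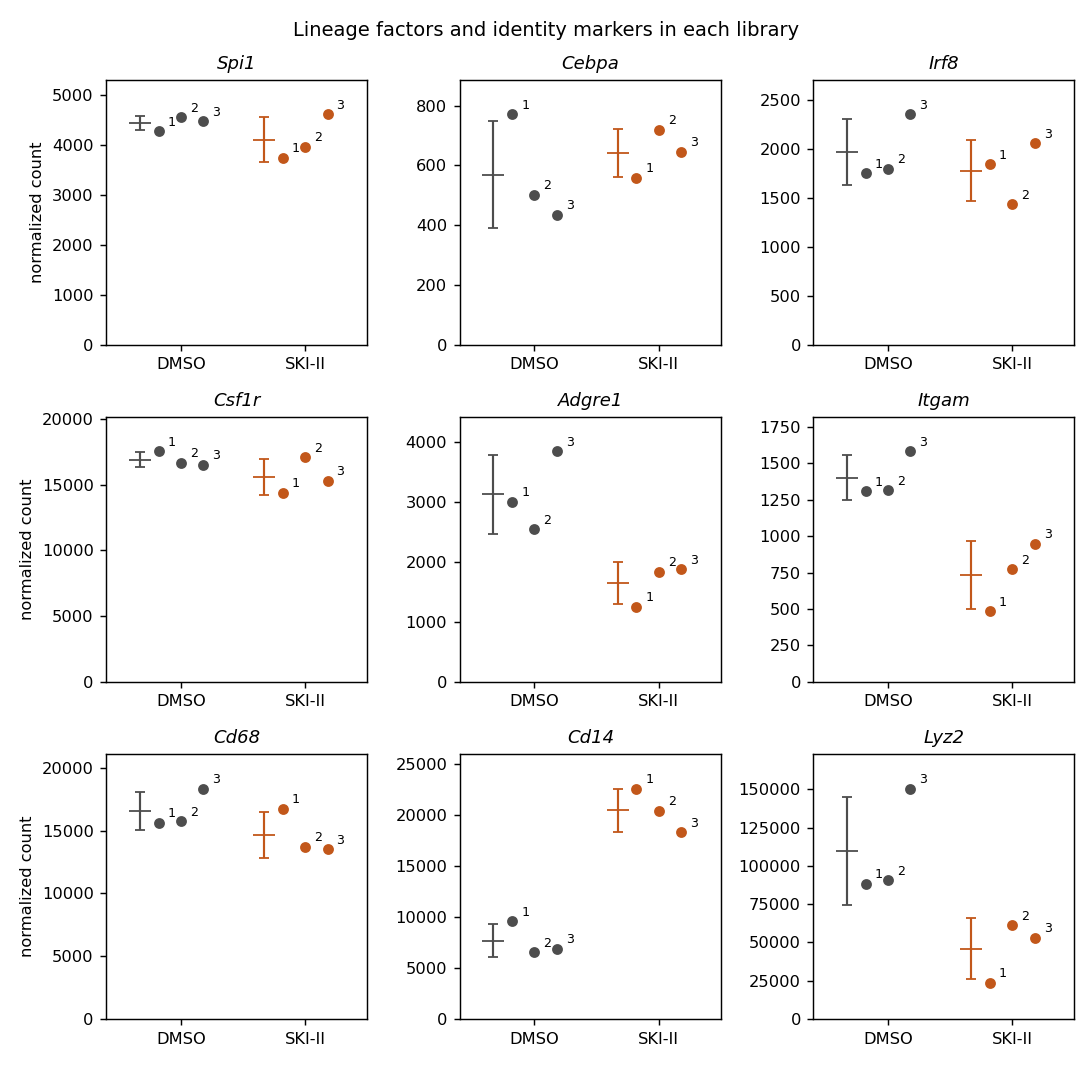
Normalized count (vertical axes, each from 0) of the 9 genes in each library, with DMSO in grey and SKI-II in orange. Numbers are the replicates, and bars to the left give the mean and the SD of 3 libraries. The conditions are separated for Adgre1, Itgam, Cd14 and Lyz2 and overlap for the other 5 genes.

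Spi1, the gene for PU.1, had 4279, 4563 and 4478 normalized counts in DMSO replicates 1, 2 and 3 and 3745, 3963 and 4615 in the SKI-II replicates. The highest single value was a SKI-II library and the conditions overlapped. The means were 4439.6 ± 146 (SD, n = 3) with DMSO and 4108 ± 453 with SKI-II, a log2 fold change of -0.11 with a standard error of 0.12 and an adjusted p = 0.512. Its 95% interval ran from -0.39 to 0.16, and leaving out single libraries gave -0.21 to -0.06, with no call.

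For Cebpa, which encodes C/EBP alpha, the DMSO libraries gave 771, 502 and 435 normalized counts and the SKI-II libraries 558, 719 and 646. DMSO replicate 1 was the highest of all 6 libraries and the other DMSO libraries were the lowest. The log2 fold change was 0.17 (SE 0.21, 95% interval -0.30 to 0.64) and its adjusted p = 0.557. Without DMSO replicate 1 it was 0.44 and without DMSO replicate 3 it was 0.01, neither past the test.

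Irf8 had 1754, 1801 and 2356 normalized counts with DMSO and 1846, 1437 and 2059 with SKI-II. The ranges overlapped. Its log2 fold change of -0.15 (SE 0.17, 95% interval -0.52 to 0.23) did not pass the test, with an adjusted p = 0.526, and stood at 0.00 without DMSO replicate 3. None of the 3 lineage factor genes was therefore called, and the intervals left room for changes of up to 0.64 on the log2 scale for Cebpa and down to -0.52 for Irf8.

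Csf1r, the receptor for CSF-1 and IL-34, was among the more abundant of the genes. Its normalized counts were 17519, 16647 and 16518 with DMSO and 14387, 17079 and 15296 with SKI-II. SKI-II replicate 2 lay between the DMSO libraries, and the other SKI-II libraries lay below them. The means of 16895 ± 545 and 15587 ± 1369 differed by a log2 fold change of -0.12 (SE 0.14, 95% interval -0.42 to 0.19), with an adjusted p = 0.536, and it was -0.18 to -0.07 as single libraries were left out.

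The surface marker Adgre1, the gene of the F4/80 antigen, an adhesion G protein-coupled receptor, had 3001, 2541 and 3843 normalized counts with DMSO. With SKI-II the values were 1249.85, 1835 and 1875. Every SKI-II library lay below every DMSO library. The mean fell from 3128 ± 660.2 to 1653 ± 349.8, a log2 fold change of -0.92 (SE 0.19, 95% interval -1.35 to -0.49) with an adjusted p = 0.00451.

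Itgam encodes CD11b, the alpha chain of complement receptor 3. DMSO libraries held 1309, 1314 and 1582 normalized counts of it and SKI-II libraries 483, 774 and 948. The conditions did not overlap, and SKI-II replicate 1 was the lowest library for Itgam as it was for Adgre1. The means were 1402 ± 156 and 735 ± 235, which is 1.90-fold lower with SKI-II, or -0.93 on the log2 scale (SE 0.22, 95% interval -1.41 to -0.45, adjusted p = 0.00781). The annotated exons of Itgam share 3450 bases, 68.7% of their length, with Gm49368, a gene model on the same strand, which had between 8 and 52 counts per library and was not called. Reads in shared exons can be left out by a counter, so the level of Itgam may be understated in every library.

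Cd14, the coreceptor that hands lipopolysaccharide (LPS) to TLR4, moved the other way. Normalized counts were 9556, 6554 and 6895 with DMSO and 22569, 20398 and 18304.5 with SKI-II. The lowest SKI-II library was well above the highest DMSO library. From 7668 ± 1644 to 20424 ± 2132, the log2 fold change was 1.41 (SE 0.17, 95% interval 1.02 to 1.80), with an adjusted p = 0.000273, the smallest of the 9 genes.

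Cd68, a heavily glycosylated protein of late endosomes and lysosomes, had 15656, 15775 and 18367 normalized counts with DMSO and 16776, 13715 and 13526 with SKI-II. SKI-II replicate 1 was above both of the lower DMSO libraries, while the other SKI-II libraries were below all of them. The log2 fold change of -0.18 (SE 0.15, 95% interval -0.51 to 0.16) did not pass the test, with an adjusted p = 0.381, and it was -0.29 to -0.10 as single libraries were left out.

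Lyz2 encodes lysozyme M, the antibacterial enzyme whose promoter drives many myeloid Cre lines, and it had the most counts of the 9 genes, from 0.149% to 0.883% of all counts in a library. Its normalized counts were 88328, 90551 and 150574 with DMSO and 23619.6, 61283 and 52949 with SKI-II. DMSO replicate 3 stood far above the other DMSO libraries and SKI-II replicate 1 far below the other SKI-II libraries, but no values crossed between conditions. The means were 109818 ± 35313 and 45951 ± 19783, a log2 fold change of -1.26 (SE 0.34, 95% interval -2.02 to -0.49) with an adjusted p = 0.0172. It was -0.96 without DMSO replicate 3, with an adjusted p = 0.0430, and -0.95 without SKI-II replicate 1, with an adjusted p = 0.0313, so the gene kept its call in each case and its place past 1 on the log2 scale in neither. The related gene Lyz1, named after its values were seen, shares much of its sequence and could share reads with Lyz2. It had 50 to 143 counts per library against 21109 to 152065 for Lyz2, with a log2 fold change of -0.72 and an adjusted p = 0.0692, and it was called without DMSO replicate 1 or SKI-II replicate 3.

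DMSO replicate 3 held the highest and SKI-II replicate 1 the lowest normalized count of each of Adgre1, Itgam and Lyz2. In the fit without SKI-II replicate 1 the log2 fold changes of Adgre1 and Itgam were -0.76 and -0.71, and in the fit without DMSO replicate 3 they were -0.75 and -0.83, each of them called. Cd14 ranged from 1.30 to 1.59 as each library was left out. Over all 13 alternatives of scaling, filter, program, block and libraries, these 4 genes were called each time and the other 5 were called in none. Groups that did not overlap were common in this comparison, with SKI-II libraries all above the DMSO libraries for 24.8% of tested genes and all below them for 25.5%.

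**Figure D2:**
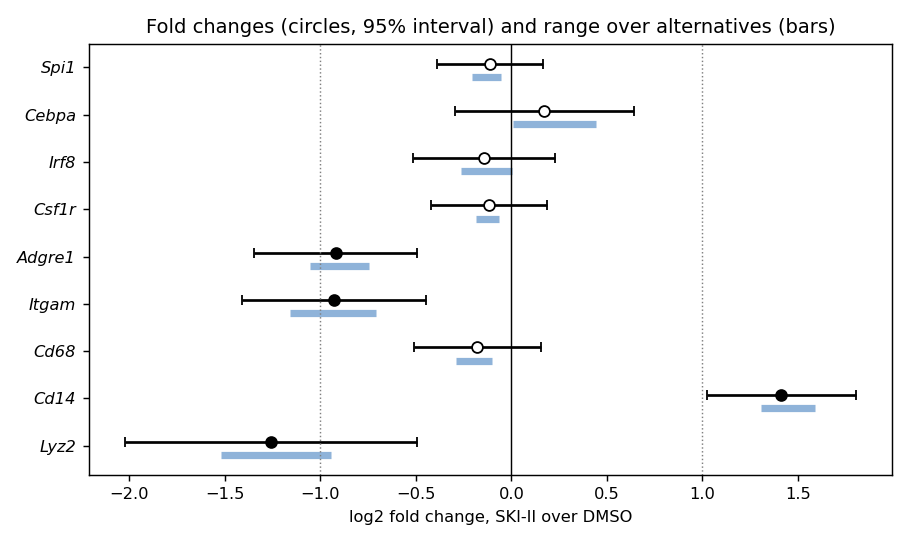
Log2 fold change of each gene, SKI-II over DMSO (horizontal axis), with its 95% interval, filled where called and open where not. Blue bars span the values over the 13 alternatives, and dotted lines mark 1 and -1. Cd14 lies at 1.41, Adgre1, Itgam and Lyz2 lie between -0.92 and -1.26, and the intervals of the other 5 genes cross 0.

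To compare genes with one another, normalized counts were divided by the length of the merged exons and expressed as RPKM, which here is the read count per kilobase of exon and unit of TMM-scaled depth. On this scale Lyz2 was the highest in DMSO, at 5202 ± 1673 (SD, n = 3), followed by Cd68 at 823 ± 76.0, Cd14 at 276 ± 59.2, Csf1r at 182 ± 5.88, Spi1 at 103 ± 3.37 and Adgre1 at 60.2 ± 12.7. Each of these was above the next with no overlap between their libraries. Irf8 at 17.4 ± 2.96, Itgam at 17.4 ± 1.94 and Cebpa at 13.5 ± 4.21 were the lowest, and neighbors in that order overlapped. With SKI-II, Lyz2 was again the highest, at 2177 ± 937. Cd14 at 735 ± 76.7 and Cd68 at 728 ± 90.5 came next and overlapped each other, although Cd14 had been well below Cd68 in DMSO. Csf1r at 168 ± 14.8, Spi1 at 95.01 ± 10.5 and Adgre1 at 31.8 ± 6.73 kept their order, and Itgam became the lowest, at 9.12 ± 2.91, below Cebpa at 15.2 ± 1.91 without overlap. Irf8, at 15.7 ± 2.79, overlapped Cebpa. The place of Itgam in both orders is uncertain, since its full exon length was used and any reads lost to the shared exons would raise its level. When the longest transcript gave the length, Irf8 stood at 32.0 with SKI-II and changed places with Adgre1, and no other pair did in either condition.

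**Figure D3:**
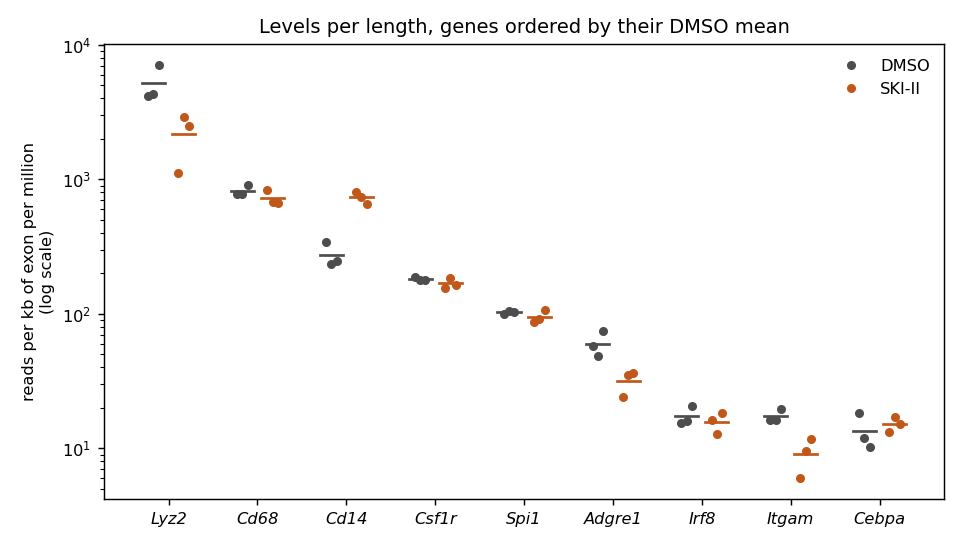
RPKM (logarithmic vertical axis) of the 9 genes in each library, ordered by their DMSO mean, with lines at the means. Lyz2 is at the top in both conditions. Cd14 rises from 276 to 735, beside Cd68, and Itgam falls from 17.4 to 9.12, levels that may be understated by its shared exons.

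In GENCODE M21, on GRCm38, Spi1 lies on chromosome 2 from 91082390 to 91115756, Cebpa on chromosome 7 from 35119293 to 35121928 and Irf8 on chromosome 8 from 120736358 to 120756694. Adgre1 lies on chromosome 17 from 57358691 to 57483527, Itgam on chromosome 7 from 128062640 to 128118491, Cd68 on chromosome 11 from 69664213 to 69666153 and Lyz2 on chromosome 10 from 117277331 to 117282321, while Csf1r and Cd14 are both on chromosome 18. The build that the authors mapped to is not given in the sources used here, and the positions are those of the annotation that names the genes. Values are for whole genes, so exons and untranslated regions are not told apart. Csf1r shares 873 bases, 15.1% of its exon length, with Hmgxb3 on the opposite strand, which had 795 to 1341 counts per library and was not called, and the strand setting of the counting is not stated. Cebpa shares 51 bases with the antisense gene Gm45091, which had at most 8 counts in a library.

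Other transcription factors of the myeloid lineage were called in both directions. Of 26 listed, 23 were tested, 8 were called higher, 4 lower and 11 neither, against 18.4% of all tested genes called higher and 19.7% called lower, and their median log2 fold change was 0.21. Cebpe, a C/EBP factor of late granulocyte maturation, had 185, 98.6 and 113 normalized counts with DMSO and 472, 618 and 421 with SKI-II. All SKI-II libraries were above the DMSO libraries, with a log2 fold change of 1.92 (SE 0.25) and an adjusted p = 0.000355. Tfec, a relative of MITF, had 27.8 to 38.6 normalized counts with DMSO and 68.4 to 117 with SKI-II, a log2 fold change of 1.48 (SE 0.30, adjusted p = 0.00375). Egr2, a zinc finger factor induced during macrophage differentiation, fell, with 50.5 to 65.4 normalized counts in DMSO libraries and 9.78 to 24.8 in SKI-II libraries, a log2 fold change of -1.75 (SE 0.37, adjusted p = 0.00497). Maf, Batf3 and Myb had no count in any library. Without SKI-II replicate 1, 2 of the list were called lower in place of 4, since Irf1 and Fli1, named after their values were seen, were no longer called.

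Among 17 genes of the colony-stimulating factor receptors and their signaling, 15 were tested, 4 were called higher and 2 lower, where 18.4% and 19.7% of all tested genes were. Their median log2 fold change was -0.21, but -0.07 without SKI-II replicate 1 and -0.13 without DMSO replicate 3. Both ligands of the receptor encoded by Csf1r rose. Csf1 had 92.3, 101 and 168 normalized counts with DMSO and 798, 560.1 and 610.2 with SKI-II, a log2 fold change of 2.44 (SE 0.24, adjusted p = 7.78e-05). Il34 had 44.2 to 66.0 with DMSO and 139 to 203 with SKI-II, a log2 fold change of 1.56 (SE 0.25, adjusted p = 0.00110). The libraries of the conditions did not overlap for either ligand, while the receptor gene itself was not called. Ptpn6, which encodes the phosphatase SHP-1, a brake on receptor signaling, fell, with 4054 to 5376 normalized counts with DMSO and 1555 to 2735 with SKI-II, a log2 fold change of -1.08 (SE 0.20, adjusted p = 0.00261). Csf2 and Il3ra had no count in any library. The other gene called lower, Grb2, named after its values were seen, lost its call when any 1 of DMSO replicates 2 and 3 and SKI-II replicates 2 and 3 was left out.

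Cd14 acts with TLR4 and its adaptors. Of a list of 12 genes for these, for relatives of TLR4 and for their partners, 11 were tested. Of these, 3 were called higher and 1 lower, beside 18.4% and 19.7% of all tested genes, with a median log2 fold change of 0.26 that was 0.17 without SKI-II replicate 2. Tlr4, the signaling receptor, had 855, 728 and 647 normalized counts with DMSO and 1180.5, 1253 and 1183 with SKI-II. It was higher in every SKI-II library, with a log2 fold change of 0.70 (SE 0.13, adjusted p = 0.00291), against 1.41 for Cd14. Ticam2, which encodes the adaptor TRAM that joins TLR4 to its endosomal arm, rose, with 297 to 341 normalized counts with DMSO and 623 to 829 with SKI-II, a log2 fold change of 1.16 (SE 0.15, adjusted p = 0.000355). Ly86, which encodes MD-1, the partner of the TLR4 relative CD180, fell, with 523 to 714 normalized counts with DMSO and 109.7 to 181 with SKI-II (-1.98 on the log2 scale, SE 0.21, adjusted p = 0.000105). Ly96, also named after its values were seen, encodes MD-2, the LPS-binding partner of TLR4, and was not called, at 62.4 ± 12.5 and 58.9 ± 14.2 normalized counts.

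The partners and relatives of the marker proteins were divided. Of 12 listed, 10 were tested, and 4 were called higher and 3 lower, beside the same 18.4% and 19.7% of all tested genes. Their median log2 fold change of -0.04 changed sign without DMSO replicate 3, at 0.10, and without SKI-II replicate 1, at 0.09. Without DMSO replicate 2 the median was -0.12. Itgb2, which encodes CD18, the beta chain that pairs with CD11b, had 8380.4, 7747 and 8761 normalized counts with DMSO and 1315, 1700.4 and 1258 with SKI-II. It fell 5.82-fold, a log2 fold change of -2.54 (SE 0.14, adjusted p = 7.52e-06), where Itgam fell 1.90-fold. Lamp1, a lysosomal membrane protein gene, fell, with 11597 to 16577 normalized counts with DMSO and 3230.4 to 4609 with SKI-II, a log2 fold change of -1.83 (SE 0.18, adjusted p = 7.41e-05). Lamp2, Cd63 and Lgals3 of the same list, named after their values were seen, were called higher. Their log2 fold changes were 0.403 (adjusted p = 0.0368), 0.719 (adjusted p = 0.00242) and 1.197 (adjusted p = 0.000411). With any 1 library left out, the count of the list called higher was 3 or 4. Adgre5, the gene for CD97 and a relative of Adgre1, rose from 6.80, 7.58 and 15.8 normalized counts to 62.7, 343 and 95.3, a log2 fold change of 4.02 (SE 0.72, adjusted p = 0.00158). SKI-II replicate 2 was far above the others for this gene, and the log2 fold change was 2.95 without it, still called.

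Of 32 other macrophage marker genes, 25 were tested, of which 8 were called higher and 10 lower, beside 18.4% and 19.7% of all tested genes. Their median log2 fold change was -0.02, and -0.07 without SKI-II replicate 2. Cybb, the catalytic subunit of the phagocyte NADPH oxidase, had 5194, 3811 and 7616 normalized counts with DMSO and 329, 224 and 427 with SKI-II. Every SKI-II value was far below every DMSO value, with a log2 fold change of -4.08 (SE 0.27, adjusted p = 1.50e-05). Cx3cr1, the fractalkine receptor of patrolling monocytes and microglia, had 1704, 435 and 295 normalized counts with DMSO and 58.2, 67.7 and 36.7 with SKI-II. DMSO replicate 1 was high among the DMSO libraries, and the log2 fold change was -3.92 (SE 0.60, adjusted p = 0.00111) with it and -2.77 without it, called in both. Ccr2, the chemokine receptor of inflammatory monocytes, rose, with 6.32 to 12.6 normalized counts with DMSO and 96.1 to 162 with SKI-II, a log2 fold change of 3.66 (SE 0.37, adjusted p = 6.11e-05). When single libraries were left out, the count called higher went down to 4, without DMSO replicate 2 or without SKI-II replicate 2, and to 5 without SKI-II replicate 1. The count called lower was then between 8 and 10.

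**Figure D4:**
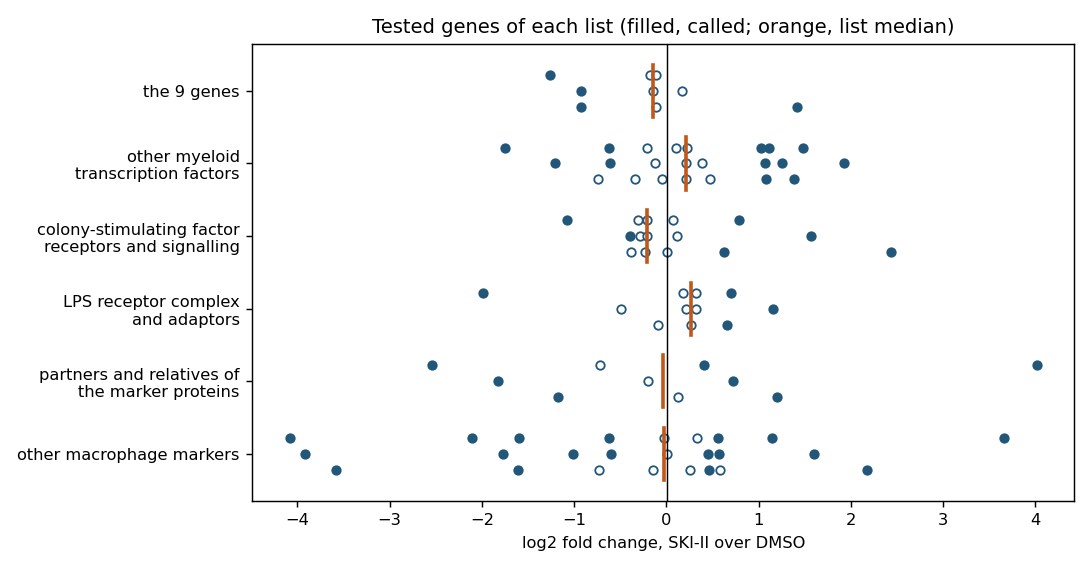
Log2 fold change, SKI-II over DMSO (horizontal axis), of the tested genes in each list, filled where called at an adjusted p below 0.05 and open where not. Orange lines mark list medians and the black line the median of all tested genes, 0.00. The medians lie between -0.21 and 0.26, with called genes on both sides in every list.

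For the 2 genes past 1 on the log2 scale, the tested genes with the most similar profile were sought, by the root mean square difference of log2 CPM over the 6 libraries after centering each gene on its DMSO mean. For Cd14 they were Ifi211, at 0.080, and Pafah2, at 0.087. Ifi211, an interferon-inducible gene of the AIM2-like receptor family, had 118, 74.5 and 79.2 normalized counts with DMSO and 241, 233 and 212 with SKI-II. For Lyz2 the nearest genes were Igfbp4, at 0.203, and Gda, which encodes guanine deaminase, at 0.209, both less close than the neighbors of Cd14. Igfbp4, an insulin-like growth factor binding protein gene, had 1289, 1477 and 1740 normalized counts with DMSO and 387, 791 and 865 with SKI-II, so that DMSO replicate 3 was again the highest and SKI-II replicate 1 the lowest. These genes were chosen for their likeness, which is a description.

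Markers of the labelled cell type and of others were checked in every library. All 9 genes had at least 397 counts in each library, whereas Cd163, Marco and Timd4, markers of some tissue-resident macrophages, had none in any, and C1qa, C1qb, C1qc and Vsig4 had at most 3 counts in a library. The 8 B lineage genes listed summed to at most 0.907 CPM in a library, with Ebf1 and Ms4a1 at 0. The T and NK lineage list summed to 2.52 to 4.78 CPM with DMSO and 1.49 to 3.00 with SKI-II, mostly from Cd5 at 22 to 75 counts, with Cd3g, Cd8a, Ncr1 and Klrb1c at 0 and Cd4 at no more than 6 counts. The neutrophil list summed to 2.30 to 6.48 CPM with DMSO and 1.95 to 6.96 with SKI-II, mostly from S100a8 (27 to 117 counts, not called), with Prtn3 at no more than 4 counts and Ly6g, Ltf and Ngp at 0. Mast cell and basophil genes summed to at most 0.370 CPM with DMSO and 2.23 with SKI-II, where Gata2 had 3 to 6 counts with DMSO and 25 to 34 with SKI-II (adjusted p = 0.00191), Cpa3 had at most 2 counts and Kit was at 0. Dendritic cell genes summed to 4.25 to 5.99 CPM with DMSO and 2.14 to 3.35 with SKI-II, mostly from Zbtb46, which was called lower (log2 fold change -0.84, adjusted p = 0.0451), with Clec9a at 1 to 7 counts and Flt3 at 0. Zbtb46 was called in 1 of the 6 fits that leave out a library, the one without SKI-II replicate 3, with adjusted p-values of up to 0.151 in the others. Erythroid and megakaryocyte genes summed to 6.06 to 11.97 CPM with DMSO and 9.76 to 18.4 with SKI-II, mostly from Pf4, which was not called, with Itga2b at 5 to 11 counts and Gata1 at 0. Fibroblast, epithelial and endothelial genes summed to at most 1.88 CPM, with Col1a1 at 4 to 18 counts, Cdh5 at 2 to 7 and Epcam, Krt8, Krt18 and Cdh1 at 0. RAW264.7 cells can also become osteoclasts. The 8 osteoclast genes listed summed to 236 to 269 CPM with DMSO and 127 to 138 with SKI-II, and 4 of the 6 tested were called lower, beside 19.7% of all tested genes, with Atp6v0d2 at -1.66 (adjusted p = 0.000234) and Nfatc1 at -0.64 (adjusted p = 0.00277) on the log2 scale. Calcr, the calcitonin receptor gene of osteoclasts, was at 0 in all libraries. The part of these genes in the falls of Adgre1, Itgam and Lyz2 was not tested.

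The DMSO libraries held 12495957 to 17223480 counts and the SKI-II libraries 14213950 to 20050677. Each of the 9 genes rested on at least 1630 counts summed over the 3 libraries of a condition, the least for Cebpa with DMSO, so counting error was small beside the spread between libraries.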

How the data were processed

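Poly(A)-selected RNA of RAW264.7 cells was sequenced in 3 DMSO and 3 SKI-II libraries, made with the NEBNext Ultra II RNA kit. Per the labels and the study's methods, the authors trimmed reads with Trimmomatic 0.36, mapped them with STAR 2.5.2b, counted them with featureCounts of Subread 1.5.2 and compared groups with DESeq2. The deposited table used here holds raw counts of reads per Ensembl gene, with no normalization of these values. Not given in the sources used here are the build, the annotation release and the strand setting. GENCODE M21 named 49056 of the 49315 identifiers, and the others held at most 0.0121% of the counts of a library.

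Conditions and replicate numbers came from the sample labels, the dose from the paper's methods and the time from a figure legend. In R 4.3.3, counts were scaled by TMM and genes of low expression were removed by filterByExpr (min.count 10, min.total.count 15), which left 12274 genes with 99.9% of the counts. Groups were compared by edgeR 4.0.16 (quasi-likelihood F test), and p-values were adjusted over these genes by the Benjamini-Hochberg method. A gene was called at an adjusted p below 0.05. Standard errors came from the negative binomial weights and the moderated quasi-likelihood dispersion. To obtain normalized counts, each library was brought to 16042438 counts, the mean TMM-scaled size. Within a condition, library pairs differed by more than sampling noise, with a chi-square of 15.4 to 58.1 for each degree of freedom. The genes used there had 20 or more counts. Each library was counted as 1 replicate, though this check cannot tell separate cultures from separate libraries of 1 culture. CPM for the profile comparison used a prior count of 2. Totals of 12495957 to 20050677 counts set the precision.

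The genes, the 5 pathway lists, the 8 lists of other cell types and the tests were chosen with earlier results of these data known. Named are the 9 genes, in each pathway list the 3 called genes with the largest absolute log2 fold change and the called one with the largest opposite change, the 2 nearest profiles for each of the 9 genes that was called past 1 on the log2 scale, and the 2 most abundant genes of each other cell type list in which some library had at least 10 counts. Genes at or near 0 are named as absent markers and genes that overlap one of the 9 for that overlap, and any other gene is said to be named after its values were seen. The alternatives were DESeq2 1.42.0, limma-voom (limma 3.58.1), RLE scaling, library size alone, no filter, at least 10 counts in every library, the replicate number as a block and each library left out in turn, 13 in all. On simulated counts for this comparison with 200 of 12091 genes changed by a log2 fold change of 1, edgeR recovered 81% and made 7 false calls. The changed genes were drawn from those above a floor of mean counts and were a far smaller share than the genes called here. These rates therefore need not hold for the data. matplotlib 3.10.9 drew the figures.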

Additional observations from a re-analysis of the deposited data

How the results depend on the processing

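The 4 calls among the 9 genes (Cd14 higher, Adgre1, Itgam and Lyz2 lower) were made under all 13 alternatives, and Spi1, Cebpa, Irf8, Csf1r and Cd68 were called under none. Adjusted p-values over the alternatives reached at most 0.00307 for Cd14, 0.0143 for Adgre1, 0.0262 for Itgam and 0.0430 for Lyz2, and for the other 5 genes the lowest was 0.0687, for Cebpa without DMSO replicate 1. The direction of 1 gene turned, that of Irf8, whose log2 fold change ran from -0.27 without SKI-II replicate 3 to 0.00067 without DMSO replicate 3 (edgeR, adjusted p = 0.998). Over all tested genes, the counts called higher ran from 1507 to 2765 and those called lower from 1766 to 2819, with the smallest of each without DMSO replicate 2 and the largest with the replicate block. The replicate block gave 1 gene higher and 3 lower among the 9 and 2765 and 2819 over all genes. The labels give the conditions the same replicate numbers, but the correlation of the deviations of libraries with the same number was 0.246, 0.00994 and 0.458 for numbers 1, 2 and 3, so the numbers were not taken to pair the libraries. SKI-II replicate 2 correlated best with DMSO replicate 1, at 0.296. Scaling moved the median of all tested genes to at most 0.01 on the log2 scale. Counts per list changed by over 1.5 times where the report names a library, and for the LPS receptor list without a filter, where 2 genes were called lower in place of 1, since Cd180, named after its values were seen, was added. The medians of the other macrophage markers and of the partners and relatives, -0.02 and -0.04, were 0.02 and -0.18 when all libraries had to reach 10 counts. Levels per length of Spi1, Irf8 and Csf1r moved with the longest transcript as the length. The cause of these shifts was not tested. With 3 libraries a condition, changes as small as the intervals of the 5 genes not called could not be resolved.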

Other observations

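The genes named here were chosen after their values were seen. Of the 4 Fc receptor genes among the other macrophage markers, 2 were called higher and none lower, beside 18.4% and 19.7% of all tested genes. Fcgr1, the high-affinity Fc gamma receptor gene, rose from 909 ± 152 to 4106 ± 592 normalized counts (SD, n = 3), a log2 fold change of 2.17 with an adjusted p = 1.56e-05 by edgeR. Fcgr2b, the inhibitory receptor gene, rose by a log2 fold change of 0.56 (adjusted p = 0.0278), but it was called in only 1 of the 6 fits that leave out a library, the one without SKI-II replicate 1, with adjusted p-values up to 0.122. Fcgr3, at 0.33, was not called, except without DMSO replicate 3 (log2 fold change 0.55, adjusted p = 0.0359), and Fcer1g, at -0.02, was not called with all libraries or with any 1 left out. Msr1, a class A scavenger receptor gene, fell from 3776 ± 229 to 876 ± 408, a log2 fold change of -2.11 (adjusted p = 0.000277), whereas Cd36, a class B scavenger receptor gene, was called higher (log2 fold change 0.45, adjusted p = 0.0299). Cd36 lost its call without DMSO replicate 2 or 3 or SKI-II replicate 1 or 2, with adjusted p-values up to 0.168. Axl, a receptor tyrosine kinase gene for the clearance of dying cells, fell from 124 ± 20.4 to 10.03 ± 3.92 (log2 fold change -3.58, adjusted p = 5.79e-05).

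Among relatives of Itgam, Itgax, which encodes CD11c, fell from 230.4 ± 8.83 to 102 ± 25.6 normalized counts (log2 fold change -1.18, adjusted p = 0.00245), and Itgal, which encodes CD11a, was not called, at 860.0 ± 266 and 749.7 ± 204. Itgad, which encodes CD11d and was below the filter, had 0, 1 and 0 counts with DMSO and 14, 4 and 5 with SKI-II.

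Among the transcription factors, Cebpb rose from 1386 ± 117 to 2999 ± 439 normalized counts (log2 fold change 1.11, adjusted p = 0.000246) and Mef2c fell from 2519.55 ± 194 to 1090.1 ± 231 (log2 fold change -1.21, adjusted p = 0.000397).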
